A study of Mus musculus with 38 samples.

Results

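Oligodendrocyte precursor cells (OPCs) of WT mice were compared between 2 times of day, ZT0 (lights on) and ZT18 (within the dark phase). The members were the 8 of 38 libraries whose titles give the WT genotype with one of these times, 4 per time, and every gene of the count table was followed in them. All mice of the study carried floxed Bmal1 alleles. WT here means NG2::Cre-;Bmal1fl/fl, so both groups had floxed but unrecombined alleles, and the KO mice used for reference were NG2::Cre+;Bmal1fl/fl, in which the Cre is driven by the promoter of NG2 (Cspg4), a gene that pericytes express as well as OPCs. The mice were at postnatal days 6 to 7, were housed under 12 h of light and 12 h of dark, and received no drug. Each library pooled forebrain cells of 2 mice that had been depleted of microglia and endothelial cells on lectin plates and captured on a plate with an antibody against PDGFRA, the receptor that marks OPCs. The labels do not tie libraries to litters or days, so the p-values below rest on the spread between pools, with 4 libraries in each group compared. For single genes that spread was estimated over all 38 libraries, while the tests of library measures used these 8 alone.

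OPCs are the dividing glial cells that give rise to myelinating oligodendrocytes. The circadian clock of a cell is a transcriptional loop in which BMAL1 (gene Arntl) and CLOCK bind E-box sequences and switch on Per, Cry and Nr1d genes, whose products then repress BMAL1 and CLOCK activity or Arntl transcription. In nocturnal rodents ZT0 is the start of the rest phase and ZT18 falls in the active phase, and the output of such a loop differs between these times in many tissues.

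The libraries held 22.5 to 26.6 M counts at ZT0 and 24.9 to 28.2 M at ZT18. Counts per M of the scaled library size are called CPM. Ribosomal RNA genes took 0.830 to 1.34% of counts at ZT0 and 0.777 to 0.998% at ZT18, which overlapped (two-sided exact permutation p = 0.229). Haemoglobin genes took 0.160 to 0.267% at ZT0 and 0.323 to 0.339% at ZT18, which did not overlap. The exact permutation p of 0.0286 for haemoglobin is the smallest that 4 against 4 allows, and it was 0.143 after adjustment over 5 library measures. By Xist and Y-linked genes, ZT0 replicate 1 held female RNA only and ZT18 replicates 2 and 4 held male RNA only, while the other 5 libraries held both. ZT0 replicate 1 also had 29763 genes with a count, against 24290 to 24923 in the other ZT0 libraries. ZT0 replicate 4 stood apart in stress genes: the heat shock gene Hspa1b read 88.2 CPM there and 0.554 to 1.87 CPM in the other 7 libraries.

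The labelled cell type was present in every library. Pdgfra, the receptor used for capture, read 4024, 3466, 3950 and 4882 CPM in ZT0 replicates 1 to 4 and 3776, 4550, 4109 and 3892 CPM in ZT18 replicates 1 to 4. The 2 times overlapped, and the log2 difference of ZT0 over ZT18 was -0.00 with a 95% interval of -0.26 to 0.26. On a scale per length, Pdgfra averaged 407 CPM per kb over the 8 libraries, the lineage factor Olig2 263 CPM per kb and Cspg4 74.8 CPM per kb. The 20 genes of the OPC marker list had a median of 83.5 CPM per kb, and 9 of them had a positive and 11 a negative log2 difference, with a median of -0.02. Without ZT0 replicate 4, 2 of the 20 were positive and the median was -0.10. The 20 genes of the microglia marker list stood at a median of 217 CPM per kb, above that of the OPC list, although the plates were meant to remove microglia. Their summed level was uneven within each time: 6994, 13990, 17049 and 7326 CPM in ZT0 replicates 1 to 4 and 15113, 15765, 9590 and 5755 CPM in ZT18 replicates 1 to 4. Endothelial markers were at a median of 0.724 CPM per kb and astrocyte markers at 24.8 CPM per kb. In such bulk samples, fewer cells of a type and less RNA per cell cannot be told apart.

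No gene passed the test between ZT0 and ZT18 in WT OPCs. Of 22798 genes tested, 0 were called higher (0%) and 0 lower (0%) at an adjusted p of 0.05 in edgeR's quasi-likelihood test (adjusted by Benjamini and Hochberg's method). DESeq2 called 1 gene and limma-voom 0 on the same genes. At an unadjusted p under 0.05, 935 genes (4.10%) were counted, 514 with a higher level at ZT0 (2.25%) and 421 with a lower level (1.85%), where an equal spread of p-values would put 1139.9 genes in that bin. With the other scaling, by median of ratios, these counts were 629 and 336. The smallest adjusted p was 0.788, shared by the homeobox gene Irx3 and the unnamed gene model Gm37790, and all other genes had an adjusted p of 0.995 or more, so adjusted values are not repeated for single genes below. The error gives how closely the difference of a single gene was measured, and not the size that the adjusted test would call. Its 95% interval is not adjusted for the number of genes, so a gene whose interval leaves out 0 need not be called. For the 14269 genes with a mean log2 CPM above 1 the median standard error (SE) of the log2 difference was 0.15, and the median 95% interval reached 0.306 to either side, and 88 of these genes had group levels more than 2-fold apart.

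**Figure D1:**
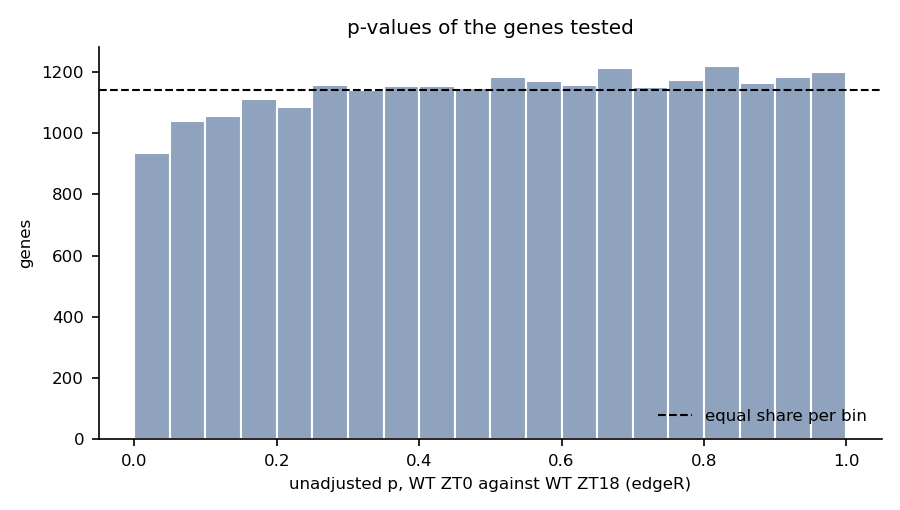
Histogram of the unadjusted edgeR p-values (x axis, bins of 0.05) of the 22798 genes tested between WT ZT0 and WT ZT18, with the number of genes on the y axis and a dashed line at an equal share per bin. The bin nearest 0 holds 935 genes, below the dashed line at 1139.9.

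No clock gene passed the test between the 2 times, and most had log2 differences near 0. Of 24 core clock genes measured, 12 had a positive and 12 a negative log2 difference, with a median of 0.01, the same as the median of 0.01 over all genes tested. Groups did not overlap for 2 of the 24, both with higher values at ZT0, where 1.82% of all genes tested were of that kind and 1.16% of the reverse. These 2 were Per1 and Ciart, both repressors in the loop.

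Per1 (chromosome 11, 69095217 to 69109960 in GRCm38), a period gene that is also switched on by light and hormone signals, read 124, 83.2, 69.0 and 75.7 CPM in ZT0 replicates 1 to 4. At ZT18 it read 53.6, 35.9, 61.7 and 44.0 CPM. All 4 ZT0 libraries thus lay above all 4 ZT18 libraries, and the highest value came from the female-only library. The log2 difference was 0.85 (SE 0.30, 95% interval 0.25 to 1.45, an interval that, like the others below, is not adjusted for the number of genes), and it was 0.38 without the 3 libraries of 1 sex. At the other WT times Per1 read 175.5 to 352 CPM (ZT6), above every library of both groups, and 92.6 to 161 CPM (ZT12), above ZT18 and overlapping ZT0.

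Ciart, a repressor of CLOCK and BMAL1, read 10.9, 8.31, 8.58 and 10.3 CPM at ZT0 and 7.02, 5.41, 5.90 and 5.44 CPM at ZT18. The groups did not overlap, yet the log2 difference of 0.68 had an SE of 0.45, since the SE draws on the spread of all 8 groups of the study. Ciart read 56.4 to 71.4 CPM at ZT6, so that both ZT0 and ZT18 fell in the low part of its daily range.

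The promoters of these 2 genes are shown because both hold the E-box CACGTG, the sequence BMAL1 and CLOCK bind, and because they are the clock genes whose groups did not overlap. Sequences are from RefSeq on GRCm38.p6, 5′ to 3′ on the gene's strand and ending just before the annotated start, with CACGTG in capitals. For Per1 the window is chr11:69098773-69098948 on the plus strand. It belongs to 1 of 2 annotated promoters, the first listed that holds CACGTG. This window lies inside the Per1 span given above, downstream of where that span begins. For Ciart the window is chr3:95882229-95882354 on the minus strand.
Per1: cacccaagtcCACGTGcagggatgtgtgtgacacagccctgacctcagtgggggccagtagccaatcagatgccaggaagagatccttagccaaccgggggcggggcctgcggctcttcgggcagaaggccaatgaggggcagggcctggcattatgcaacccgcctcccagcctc
Ciart: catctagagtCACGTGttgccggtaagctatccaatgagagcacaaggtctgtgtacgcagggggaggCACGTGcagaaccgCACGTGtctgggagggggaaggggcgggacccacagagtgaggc
The Ciart window holds 3 copies and the Per1 window 1. Promoters of 19 of the 24 clock genes were in the table, and 5 of them (26.3%) held CACGTG on either strand, against 8.09% of the 27025 gene symbols with a promoter there. A match describes the letters and is not evidence of binding.

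The other clock genes described here overlapped between the times. Arntl, the gene of BMAL1, read 33.2, 21.8, 19.4 and 22.1 CPM at ZT0 and 21.2, 23.2, 27.5 and 30.4 CPM at ZT18. Both groups spanned almost the same range, with a log2 difference of -0.08 (SE 0.13). Its partners Clock (0.03) and Npas2 (0.13) had log2 differences of similar small size. Among the other repressors, Per2 had a log2 difference of 0.07, Per3 of -0.02, Cry1 of 0.08 and Cry2 of -0.11.

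Nr1d1 and Nr1d2, which code for the REV-ERB repressors of Arntl, overlapped between the groups. Nr1d1 read 17.1, 19.8, 16.2 and 22.4 CPM at ZT0 and 16.9, 17.7, 20.1 and 19.4 CPM at ZT18, with a log2 difference of 0.03 (SE 0.26). Nr1d2 read 55.3 to 68.7 CPM at ZT0 and 55.1 to 63.4 CPM at ZT18. Both were higher at ZT6, at 44.5 to 62.5 CPM for Nr1d1 and 74.5 to 104.6 CPM for Nr1d2. Their opposing activators had log2 differences of -0.06 (Rora) and 0.05 (Rorb).

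Of the clock output factors, Dbp (-0.12), Tef (-0.01) and Hlf (0.09), which activate D-box genes, and Nfil3 (0.17), which represses them, all overlapped between the groups. So did the E-box repressors Bhlhe40 (log2 difference 0.17) and Bhlhe41 (-0.04). The casein kinases that mark PER proteins for decay, Csnk1d (-0.12) and Csnk1e (-0.08), and Fbxl21 (-0.13), an F-box gene that acts on CRY protein stability, overlapped too. For Nfil3 and Bhlhe40 the sign turned without ZT0 replicate 4, to -0.06 and -0.21. The RNA-binding genes Cirbp (-0.07) and Rbm3 (-0.06), which follow body temperature, overlapped as well.

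**Figure D2:**
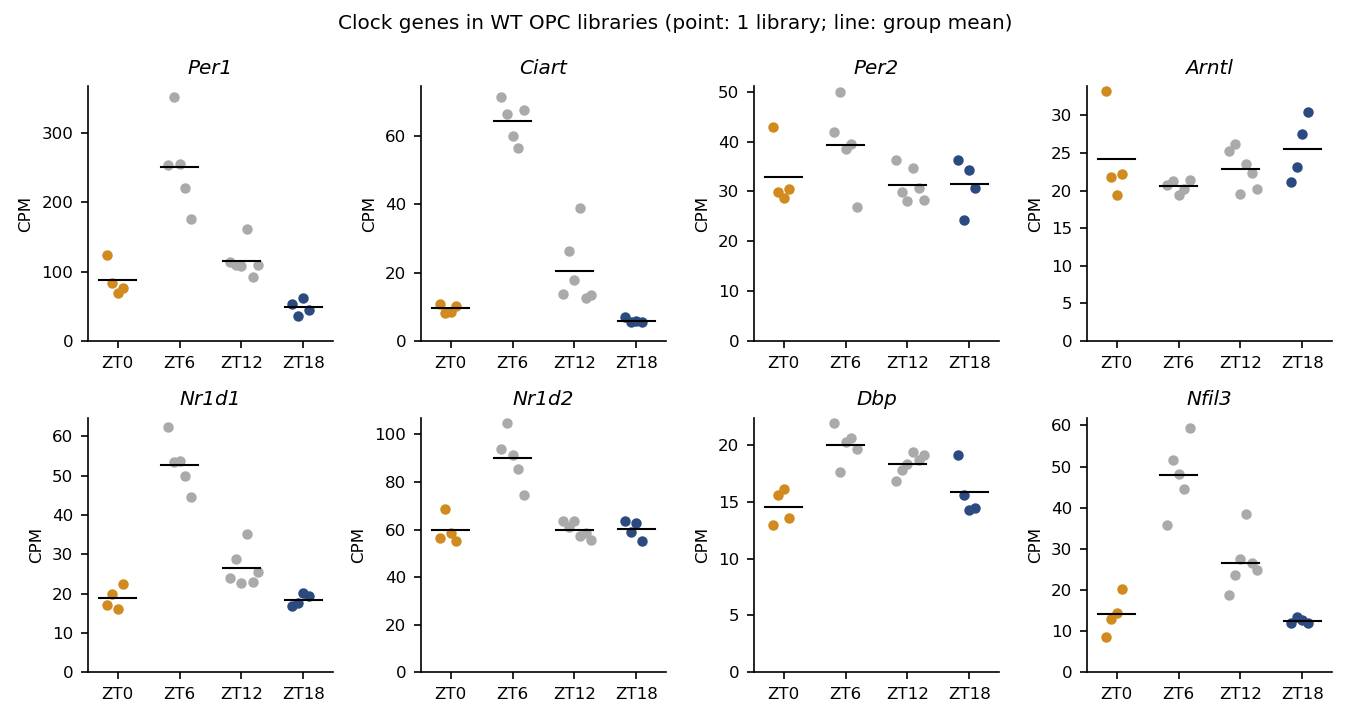
CPM (y axis, linear from 0) of 8 clock genes in every WT library at ZT0, ZT6, ZT12 and ZT18 (x axis), with 1 point per library and a line at each group mean. ZT0 (orange) lies above ZT18 (blue) without overlap for Per1 and Ciart, while the other 6 genes overlap between these times, as Arntl does at 19.4 to 33.2 CPM against 21.2 to 30.4 CPM.

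Immediate early genes, which cells switch on within minutes of a stimulus without new protein synthesis, leaned to higher values at ZT0, but none was called. Of 26 members measured, 22 had a positive log2 difference (84.6%, against 52.8% of all genes tested, of which 47.2% were negative), and the list median was 0.37. Without ZT0 replicate 3 there were 17 positive with a median of 0.21, and without ZT18 replicate 4 there were 18 with a median of 0.24. At an unadjusted p under 0.05, 5 of the 26 were counted, all with higher values at ZT0 (19.2%, against 4.10% of all genes tested in either direction). For 3 members, Egr3, Fosl2 and Egr2, the groups did not overlap, with higher values at ZT0 (1.82% of all genes tested).

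Egr3, a zinc finger factor downstream of growth factor and calcium signals, read 60.3, 57.2, 45.2 and 70.5 CPM at ZT0 and 19.5, 11.1, 42.2 and 21.9 CPM at ZT18. The ZT0 libraries all lay higher, but ZT18 replicate 3 came close to ZT0 replicate 3. The log2 difference was 1.30 (SE 0.38, 95% interval 0.53 to 2.06), with a range of 1.05 to 1.73 when 1 of the 8 libraries was left out. It was 0.89 without the 3 libraries of 1 sex. Egr2, a related factor, read 47.7 to 56.6 CPM at ZT0 and 25.6 to 41.5 CPM at ZT18 (log2 difference 0.62, or 0.34 without those 3 libraries).

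Fosl2, an AP-1 subunit, read 13.5, 17.7, 15.7 and 29.0 CPM at ZT0 and 10.7, 8.74, 10.7 and 7.20 CPM at ZT18. The groups did not overlap, and the log2 difference was 1.02 (SE 0.39). Nr4a3, an orphan nuclear receptor, is a case where 1 library set the value: it read 66.6 CPM in ZT0 replicate 4 and 7.47 to 10.7 CPM in the other 7 libraries. Its log2 difference of 1.44 was 0.08 without that library. Within the list, the 4 summed levels at ZT0 were 7530, 9172, 10438 and 4576 CPM and those at ZT18 were 8576, 7068, 8044 and 5564 CPM, so that the summed level of the immediate early list, which the most abundant members set, overlapped. In the WT libraries at ZT6, Egr3 read 70.3 to 196.5 CPM, which overlapped ZT0, and Fosl2 read 39.2 to 57.1 CPM, above every ZT0 library.

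Promoters of 19 of the 26 immediate early genes were in the RefSeq table, and 13 of them (68.4%) held TGACG, a short site that CREB binds, on either strand within 250 bases before to 50 after the start, against 23.0% of all gene symbols there.

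Genes of the NF-kB and inflammation list showed the same lean. Of 24 members measured, 23 had a positive log2 difference and the median was 0.46. At an unadjusted p under 0.05, 6 were counted with higher values at ZT0 (2.25% of all genes tested were), and for 2, Ptgs2 and Nfkb2, the groups did not overlap (1.82% of all genes tested).

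Ptgs2, the inducible prostaglandin synthase COX-2, read 7.94, 4.50, 5.13 and 8.83 CPM at ZT0 and 2.62, 1.02, 2.95 and 1.56 CPM at ZT18. All ZT0 libraries lay above all ZT18 libraries, with a log2 difference of 1.69 (SE 0.50, 95% interval 0.68 to 2.70). Without the 3 libraries of 1 sex the difference was 1.13. Ptgs2 read 33.4 to 50.5 CPM at ZT6. Nfkb2, which codes for the precursor of the NF-kB subunit p52, read 49.6, 36.1, 34.6 and 29.2 CPM at ZT0 and 27.5, 22.9, 28.2 and 18.3 CPM at ZT18, a log2 difference of 0.63 that was 0.25 without the 3 libraries of 1 sex. ZT0 replicate 4 was the lowest of its group and ZT18 replicate 3 came within about 1 CPM of it.

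The neutrophil-attracting chemokine Cxcl2 (log2 difference 1.03) and the cytokine Il1a (0.81) overlapped between the groups. Il1a read 26.3, 52.1, 40.7 and 68.6 CPM at ZT0 and 29.5, 32.0, 29.1 and 16.3 CPM at ZT18. The lowest library was ZT18 replicate 4, and it was also the lowest in the mean level of the NF-kB and inflammation list, at a mean log2 CPM of 4.28 against 4.97 to 5.18 in the other ZT18 libraries and 5.10 to 5.62 at ZT0. Without this library the list median was 0.28. The same library had the lowest summed microglia marker level of all 8, given above, while ZT0 replicate 4, highest in the NF-kB and inflammation list, had the third lowest. Microglia markers themselves did not lean to either time, with 9 of 20 positive and a median log2 difference of -0.02, which moved between -0.28 and 0.14, with 0 to 17 positive, as single libraries were left out. Their part in the inflammatory values was not tested. Without the 3 libraries of 1 sex, 22 of the 24 members were positive with a median of 0.26, and 19 of the 26 immediate early genes with a median of 0.26.

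**Figure D3:**
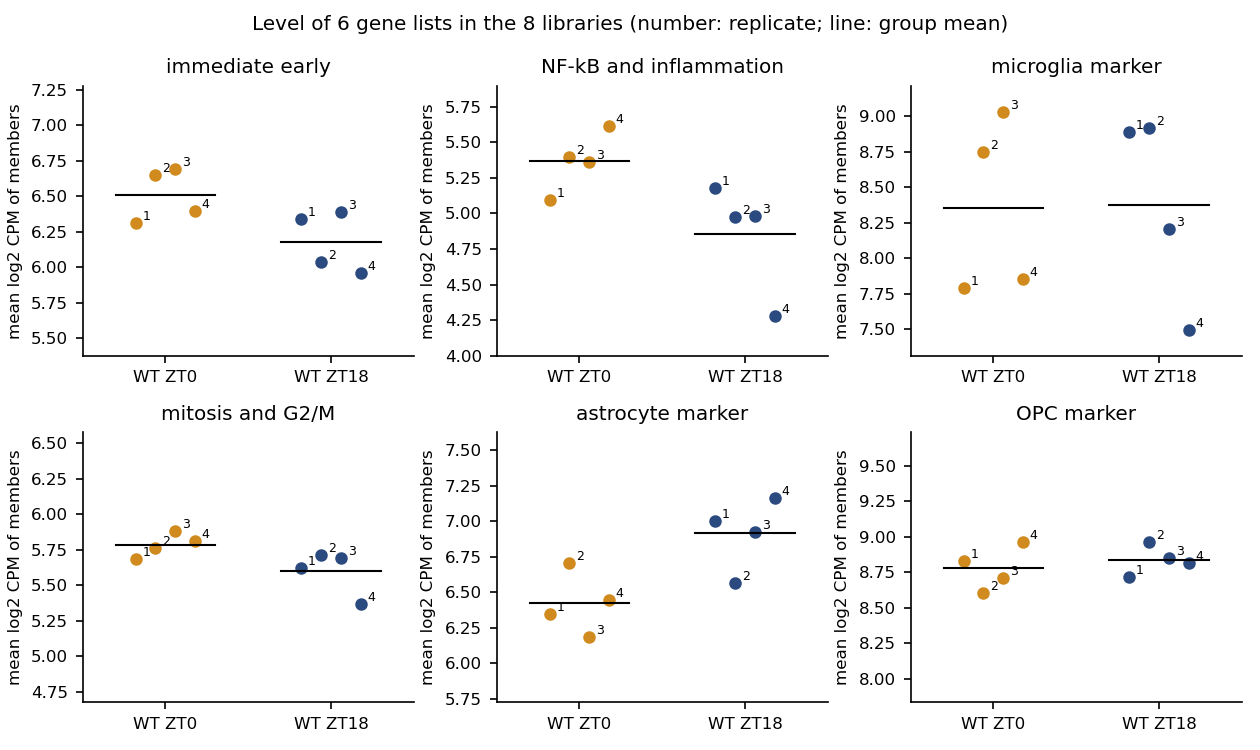
Mean log2 CPM of the members (y axis, each panel spanning the same log2 range) of 6 gene lists in the 8 libraries, ZT0 orange and ZT18 blue, numbered by replicate, with a line at each group mean. The inflammation list is lowest in ZT18 replicate 4 at 4.28, the microglia markers spread within both groups, and the OPC markers overlap.

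Mitosis genes all pointed one way. All 24 genes of mitosis and G2/M measured had a positive log2 difference, 0.02 to 0.38, with a median of 0.18. None was called. At an unadjusted p under 0.05, 5 of the 24 were counted (2.25% of all genes tested in this direction), and for 5 the groups did not overlap (1.82% of all genes tested). Genes of DNA replication and S phase had 8 positive of 24 and a median of -0.04, and none had an unadjusted p under 0.05. Their sign was not stable, with 3 positive (median -0.11) without ZT0 replicate 3 and 13 positive (median 0.02) without ZT18 replicate 2.

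Kif23, a kinesin of the midbody that completes cell division, read 52.3, 55.1, 49.0 and 42.1 CPM at ZT0 and 41.5, 37.1, 41.8 and 32.2 CPM at ZT18. The groups were separate by less than 1 CPM, with a log2 difference of 0.38 (SE 0.12, 95% interval 0.14 to 0.62). That difference was 0.22 without the 3 libraries of 1 sex. Kif11, the kinesin that pushes spindle poles apart, read 89.4, 101, 114 and 112 CPM at ZT0 and 88.0, 83.9, 87.7 and 77.0 CPM at ZT18. Again the groups just failed to overlap (log2 difference 0.31, SE 0.11). Cenpe, a kinesin of the kinetochore (0.28), and Hmmr, a spindle protein (0.31), overlapped.

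Of genes with a role in cell division outside the list, Dlgap5, a spindle protein, read 30.9, 28.2, 32.3 and 30.5 CPM at ZT0 and 21.4, 23.3, 24.9 and 19.4 CPM at ZT18. Every ZT0 library lay above every ZT18 library, at a log2 difference of 0.45 (SE 0.13). Kif15, a spindle kinesin (0.38), and Anln, a cytokinesis scaffold (0.49), were among the 10 smallest p-values with higher values at ZT0 but overlapped. The G1 cyclin and CDK inhibitor list had 4 positive and 9 negative of 13 with a median of -0.08. Its member Cdk6, a G1 kinase, had a log2 difference of 0.25, which was 0.13 without ZT18 replicate 4, the library in which it was lowest. That library was also the lowest in the mean level of the mitosis list, and without it the list median was 0.09 and at least 22 of the 24 members were positive whichever single library was left out.

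Promoters of 2 genes of the mitosis list are shown for the paired elements that control many genes of G2 and M phase: the CCAAT box, bound by NF-Y, and the CHR element TTTGAA, bound by the DREAM and MuvB complexes. Both elements stand in capitals on either strand, where the reverse complements read ATTGG and TTCAAA. Kif11 is chr19:37376322-37376381 on the plus strand and Top2a is chr11:99024190-99024426 on the minus strand, GRCm38.p6, from RefSeq, and both windows end just before the start. They belong to the 2 genes of smallest p among the 8 of the list that hold both elements upstream.
Kif11: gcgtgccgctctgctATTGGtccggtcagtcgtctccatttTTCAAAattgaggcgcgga
Top2a: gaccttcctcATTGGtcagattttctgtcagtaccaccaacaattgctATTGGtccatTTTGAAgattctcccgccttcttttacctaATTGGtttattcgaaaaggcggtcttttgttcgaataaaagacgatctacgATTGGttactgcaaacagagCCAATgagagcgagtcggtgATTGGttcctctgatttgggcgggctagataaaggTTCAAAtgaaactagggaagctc
Of the 19 mitosis genes with a promoter in the table, 17 (89.5%) held CCAAT, on either strand within 250 bases before to 50 after the start, against 41.1% of all gene symbols, and 14 (73.7%) held TTTGAA, against 20.2%. Top2a, the topoisomerase that untangles sister chromatids, was picked for its promoter after the values were seen. It read 234, 268, 291 and 251 CPM at ZT0 and 216, 249, 244 and 195 CPM at ZT18, which overlapped, with a log2 difference of 0.21.

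Astrocyte markers pointed the other way. All 18 genes of the astrocyte marker list had a negative log2 difference, -0.72 to -0.09, with a median of -0.49, or lower values at ZT0. At an unadjusted p under 0.05, 7 of the 18 were counted (38.9%, against 1.85% of all genes tested in this direction), and none was called. For 2, Clu and Atp1b2, the groups did not overlap (1.16% of all genes tested). The summed level of the astrocyte marker list was 3360, 4502, 3832 and 4041 CPM at ZT0 and 6087, 4881, 5045 and 5439 CPM at ZT18, and the groups were separate. The median lay between -0.62 and -0.42 as single libraries were left out, with 0 positive members each time, and was -0.53 with 1 positive member without the 3 libraries of 1 sex. Of these 18 genes 3 also stand in another list, and OPCs themselves express several of them.

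Clu, a secreted chaperone, read 143, 210, 146 and 177 CPM at ZT0 and 234, 215, 222 and 255 CPM at ZT18. The groups were separate by a narrow margin at ZT0 replicate 2 and ZT18 replicate 2, with a log2 difference of -0.45 (SE 0.15). Atp1b2, a sodium pump subunit, read 245, 299, 226 and 272 CPM at ZT0 and 328, 300, 316 and 339 CPM at ZT18 (log2 difference -0.30). The glutamate transporter Slc1a3 read 402, 605, 384 and 548 CPM at ZT0 and 641, 524, 681 and 815 CPM at ZT18, which overlapped, at -0.46. The brain aldolase Aldoc (-0.47) and the receptor Fgfr3 (-0.49), which overlapped as well, had similar values, and Fgfr3 was -0.28 without ZT18 replicate 4.

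The Id genes, inhibitors of helix-loop-helix factors that BMP signals switch on and that hold back OPC differentiation, were also lower in value at ZT0. Id3 read 20.5, 24.0, 21.7 and 27.7 CPM at ZT0 and 34.1, 30.7, 36.3 and 58.1 CPM at ZT18. The groups did not overlap, and the log2 difference was -0.76 (SE 0.23, 95% interval -1.22 to -0.30), or -0.53 without ZT18 replicate 4. Id1 (-0.93) and Id4 (-0.61) overlapped. The BMP receptor Bmpr1a had a log2 difference of -0.22. Of 14 genes of the BMP and Id list, 3 were positive, the median was -0.15, 4 had an unadjusted p under 0.05 with lower values at ZT0 (1.85% of all genes tested) and none was called. The median was -0.24 without ZT0 replicate 4 and also without ZT0 replicate 3. Astrocytes express Id genes too. ZT18 replicate 4 had the highest Id3 level and the highest mean log2 CPM of the astrocyte marker list, at 7.16. By the summed level of that list, ZT18 replicate 1 was the highest, at 6087 CPM, and its Id3 level was 34.1 CPM. The part of astrocyte RNA in these values was not tested.

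Lipid and energy metabolism held small differences. Of 18 fatty acid synthesis genes, 5 were positive with a median of -0.06. At an unadjusted p under 0.05, 4 of the 18 were counted (22.2%, against 4.10% of all genes tested in either direction). Of these, 3 had lower values at ZT0 (1.85% of all genes tested). The desaturase Fads1 read 238, 249, 243 and 254 CPM at ZT0 and 285, 276, 281 and 292 CPM at ZT18. The spread within each group was narrow and the groups were separate, at a log2 difference of -0.20 (SE 0.07). Srebf1, the factor that drives fatty acid genes, read 78.9 to 97.1 CPM at ZT0 and 97.7 to 121 CPM at ZT18 (-0.33), and the desaturase Fads2 had -0.20, while the acyl-CoA ligase Acsl4 had 0.19. Of 24 cholesterol synthesis genes 9 were positive and none had an unadjusted p under 0.05. Without ZT0 replicate 4, 2 of these were positive (median -0.22), without ZT0 replicate 3 there were 16 (median 0.02), and the fatty acid median was -0.22 without ZT0 replicate 4. Pdk2, a kinase that restrains pyruvate entry into mitochondria, read 22.8 to 26.3 CPM at ZT0 and 31.1 to 34.8 CPM at ZT18, a log2 difference of -0.41 (SE 0.11).

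Housekeeping complexes leaned to lower values at ZT0. Oxidative phosphorylation subunits had 2 positive of 24 with a median of -0.10, ribosomal proteins 3 of 24 with a median of -0.07, and proteasome subunits 2 of 23 with a median of -0.12. Without ZT0 replicate 1 the medians were -0.00, 0.03 and -0.03. Members picked by small p, all further below 0 than their list medians, were the respiratory subunit Uqcrb (-0.40) and the ribosomal protein Rpl3 (-0.22). The proteasome subunits Psmd12 (-0.22) and Psma6 (-0.23) were picked in the same way and also lay below their list median. Without the 3 libraries of 1 sex, Uqcrb, Rpl3, Psmd12 and Psma6 were at -0.22, -0.19, -0.16 and -0.03. The glutathione transferase Gstm1 read 13.8 to 20.7 CPM at ZT0 and 21.1 to 35.3 CPM at ZT18 (-0.74), although its close relatives could share reads with it.

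**Figure D4:**
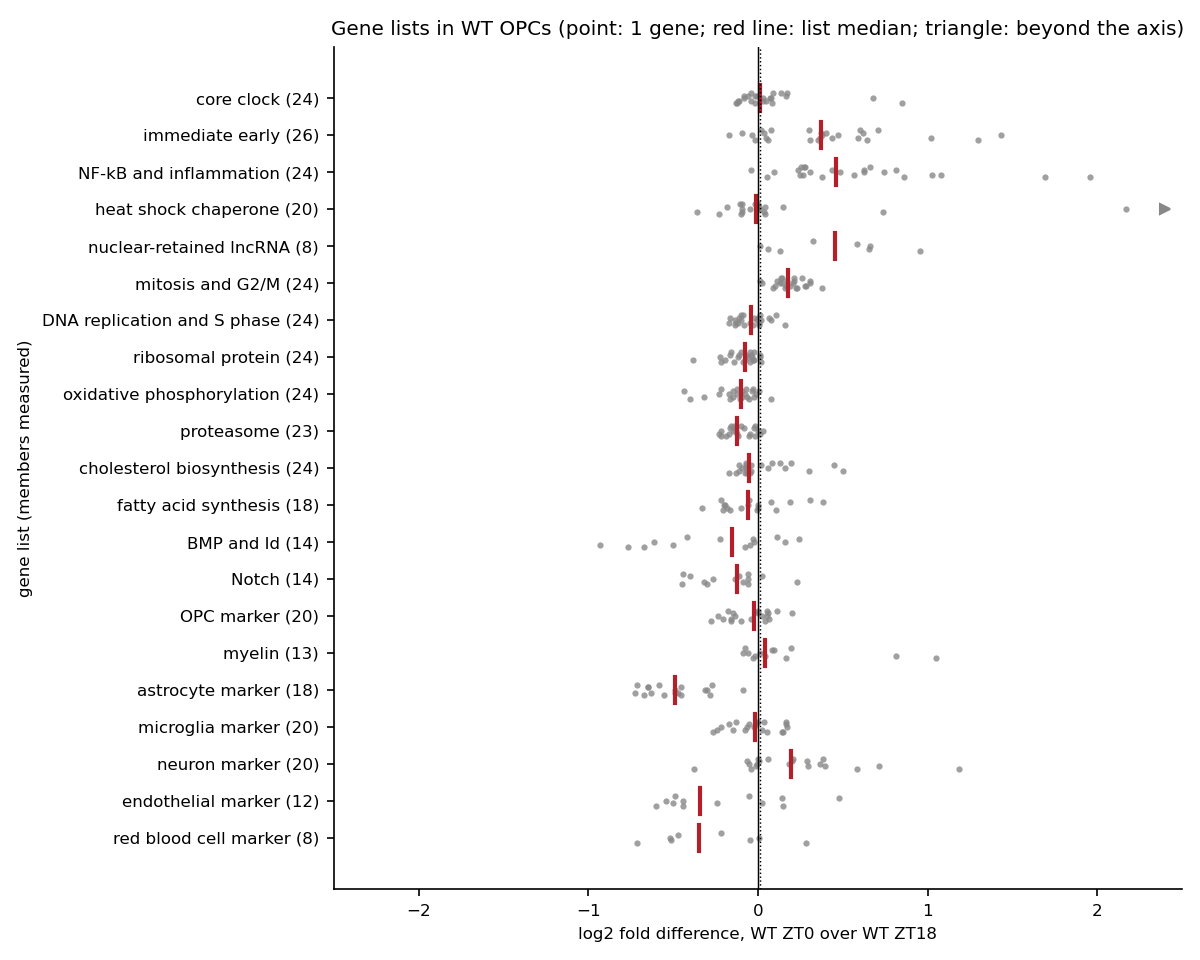
Log2 difference of ZT0 over ZT18 in WT OPCs (x axis) for each member (grey point) of 21 gene lists (y axis, members measured in brackets), with a red line at each list median and a dotted line at the median of all genes tested. All mitosis members lie right of 0 and all astrocyte markers left of it, the immediate early and inflammation medians are at 0.37 and 0.46, and 1 heat shock gene lies beyond the axis.

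Of the OPC lineage genes none had an unadjusted p under 0.05. Olig2, the factor that specifies the lineage, read 658, 508, 617 and 624 CPM at ZT0 and 697, 786, 720 and 710 CPM at ZT18. The groups did not overlap (log2 difference -0.28, SE 0.15). The phosphatase Ptprz1 (-0.15), the secreted protein C1ql1 (-0.23), the membrane protein Tmem100 (-0.21) and the proteoglycan Cspg4 (-0.04) overlapped. Apart from Cspg4, these genes were picked by small p, and all have negative values. The whole OPC marker list had 9 positive and 11 negative members, up to 0.20, with a median of -0.02. Of 13 myelin genes 8 were positive with a median of 0.04 (4 with a median of -0.03 without ZT0 replicate 2), and of 19 genes of committed precursors 8 were positive with a median of -0.02, and no member of either list had an unadjusted p under 0.05.

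Growth and patterning pathways were lower in value at ZT0 by little. Members with a positive log2 difference were 2 of 14 for Notch (median -0.12, or -0.31 without ZT0 replicate 4), 2 of 13 for Wnt feedback (median -0.13) and 3 of 18 for growth factor receptors and ERK feedback (median -0.13). The ERK brake Spry2 read 61.9 to 67.8 CPM at ZT0 and 72.2 to 94.4 CPM at ZT18, without overlap (-0.33, SE 0.20). The Wnt inhibitor Apcdd1 (-0.37) overlapped.

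Red blood cell markers include the genes of the haemoglobin share given above. Hbb-bt, an adult beta globin, read 67.9, 121, 113 and 110 CPM at ZT0 and 177, 211, 154 and 133 CPM at ZT18, and Hba-a1, an alpha globin, read 727 to 1324 CPM at ZT0 and 1336 to 1639 CPM at ZT18. Neither gene's groups overlapped, at log2 differences of -0.71 and -0.51. Globin genes have near-identical copies, so reads could be split between them. Of 8 markers, 2 were positive and the median was -0.34, or -0.19 without ZT0 replicate 1. Of the other cell types a forebrain preparation can hold, neuron markers had 14 of 20 positive with a median of 0.19, which ranged from 0.01 (without ZT0 replicate 2) to 0.41 (without ZT18 replicate 4) as single libraries were left out. Endothelial markers had 4 of 12 positive with a median of -0.34, which ranged from -0.52 (without ZT0 replicate 2) to -0.15 (without ZT18 replicate 1).

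Nuclear long noncoding RNAs leaned to higher values at ZT0, by an amount that moved with single libraries. All 8 members were positive with a median of 0.45, which ranged from 0.19 (without ZT0 replicate 2) to 0.69 (without ZT18 replicate 4), with 5 to 8 positive, as single libraries were left out. It was 0.21 without ZT0 replicate 1 and 0.24 without ZT18 replicate 2, and it was 0.19 with 6 positive without the 3 libraries of 1 sex. Malat1 read 5710, 3484, 2992 and 2237 CPM at ZT0 and 2261, 1833, 2690 and 2321 CPM at ZT18. ZT0 replicate 1 was the highest, and the log2 difference of 0.66 was 0.34 without it. Neat1, the RNA scaffold of paraspeckles, went from 0.96 to 0.34 when the same library was left out, and Kcnq1ot1, an imprinted antisense RNA, from 0.65 to 0.37. Without the 3 libraries of 1 sex, Malat1, Neat1 and Kcnq1ot1 were at 0.22, 0.06 and 0.34.

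Heat shock chaperones had 10 positive of 20. Hspa1b and its near-identical copy Hspa1a, which can share reads, had log2 differences of 4.27 and 2.17 that were -0.09 and 0.06 without ZT0 replicate 4. At ZT6 Hspa1b read 577 to 1899 CPM in the WT libraries.

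The single genes with the smallest p-values were mostly expressed at low or moderate levels. Irx3 (chromosome 8, 91798525 to 91802067 in GRCm38), a patterning factor, read 2.74, 1.56, 1.90 and 0.891 CPM at ZT0 and 3.72, 4.84, 5.83 and 3.91 CPM at ZT18. The groups were separate, and ZT18 was 2.58-fold higher (log2 difference -1.37, SE 0.30, 95% interval -1.98 to -0.75, edgeR adjusted p = 0.788). Alpl, tissue-nonspecific alkaline phosphatase, read 9.02 to 12.5 CPM at ZT0 and 13.3 to 26.5 CPM at ZT18, also separate (-0.78, SE 0.20).

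The other lower values at ZT0 among the 10 smallest p-values of that direction were those of Lxn, a carboxypeptidase inhibitor (log2 difference -0.79), Mtrf1l, a mitochondrial release factor (-0.57), Cpe, a prohormone-processing enzyme (-0.44), and Fabp5, a fatty acid binding protein (-0.56), whose groups were separate. Fgfbp3, which binds fibroblast growth factors (-0.86), and Mmd2 (-0.34) overlapped. Pdk2 and Id3, given above, complete the 10 with Irx3 and Alpl.

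Among the higher values at ZT0, Galnt11, a glycosyltransferase, had the tightest replicates. It read 75.2, 71.7, 73.0 and 70.7 CPM at ZT0 and 63.7, 61.9, 62.2 and 56.1 CPM at ZT18, a log2 difference of 0.25 (SE 0.07). Kcnip4, a regulator of potassium channels, read 6.21, 6.75, 6.28 and 5.83 CPM at ZT0 and 3.15, 2.60, 3.96 and 3.88 CPM at ZT18. Its groups were well apart, with a log2 difference of 0.88 (SE 0.24). The splicing factor Rbfox1 (0.58) and Unkl (0.38) were separate as well. Gm37790, named after its value was seen because DESeq2 called it (log2 1.48, adjusted p = 0.0467), read 11.8, 11.7, 11.7 and 5.67 CPM at ZT0 and 2.35, 2.56, 5.69 and 4.27 CPM at ZT18, which overlapped at ZT0 replicate 4.

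The same step in KO OPCs, 4 libraries against 4, gave 107 genes called higher at ZT0 (0.469%) and 256 called lower (1.12%). All 4 KO ZT18 libraries had a ribosomal RNA share of 0.0946 to 0.263%, below every library of the other 3 groups, so in the KO step time and this library feature cannot be told apart. The test of whether the step differed with genotype called 0 genes (0%), with a smallest adjusted p of 0.275, and 2022 genes (8.87%) had an unadjusted p under 0.05. DESeq2 called 5 of these differences, Mark2, Unc13d, Mast3, Inf2 and Rrad, which are also the 5 smallest p-values of edgeR.

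Set side by side, the immediate early list had 22 of 26 positive members in WT and 0 of 26 in KO, with medians of 0.37 and -0.42. The test of the difference had an unadjusted p under 0.05 for 10 of the 26 (8.87% of all genes tested). The NF-kB and inflammation list had 23 of 24 positive in WT and 0 of 24 in KO, with medians of 0.46 and -0.71. Of the 24, 19 had an unadjusted p under 0.05 for the difference (8.87% of all genes tested). The microglia markers were at medians of -0.02 in WT and -0.81 in KO, where 0 of 20 were positive and 2 were called lower (1.12% of all genes tested). Their part in the inflammatory difference was not tested. Astrocyte markers had 0 of 18 positive in WT and 2 of 18 in KO, with medians of -0.49 and -0.59. The difference had an unadjusted p under 0.05 in 1 of 18 (8.87% of all genes tested). Mitosis genes had a median of 0.18 in WT and 0.04 in KO, where 15 of 24 were positive. For the difference, 2 of the 24 had an unadjusted p under 0.05, near the 8.87% of all genes tested.

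Of single genes, Per1 had a log2 difference of 0.85 in WT and -0.45 in KO, a difference of 1.30 (SE 0.42, edgeR adjusted p = 0.408). Egr3 had 1.30 and -0.38 (edgeR adjusted p = 0.408 for the difference), and Ptgs2 1.69 and -0.24 (edgeR adjusted p = 0.419). The gene with the smallest p for the difference was Mark2, a polarity kinase, at 0.20 in WT and -0.36 in KO (difference 0.56, SE 0.11, edgeR adjusted p = 0.275). Unc13d, a granule release factor, had 0.59 and -1.32, Rrad, a small GTPase, 0.49 and -1.58, Mast3, a kinase, 0.27 and -0.58, and Inf2, a formin, 0.41 and -1.01. All 5 were positive in WT and negative in KO, and picking genes by the genotype difference favours such opposite signs.

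**Figure D5:**
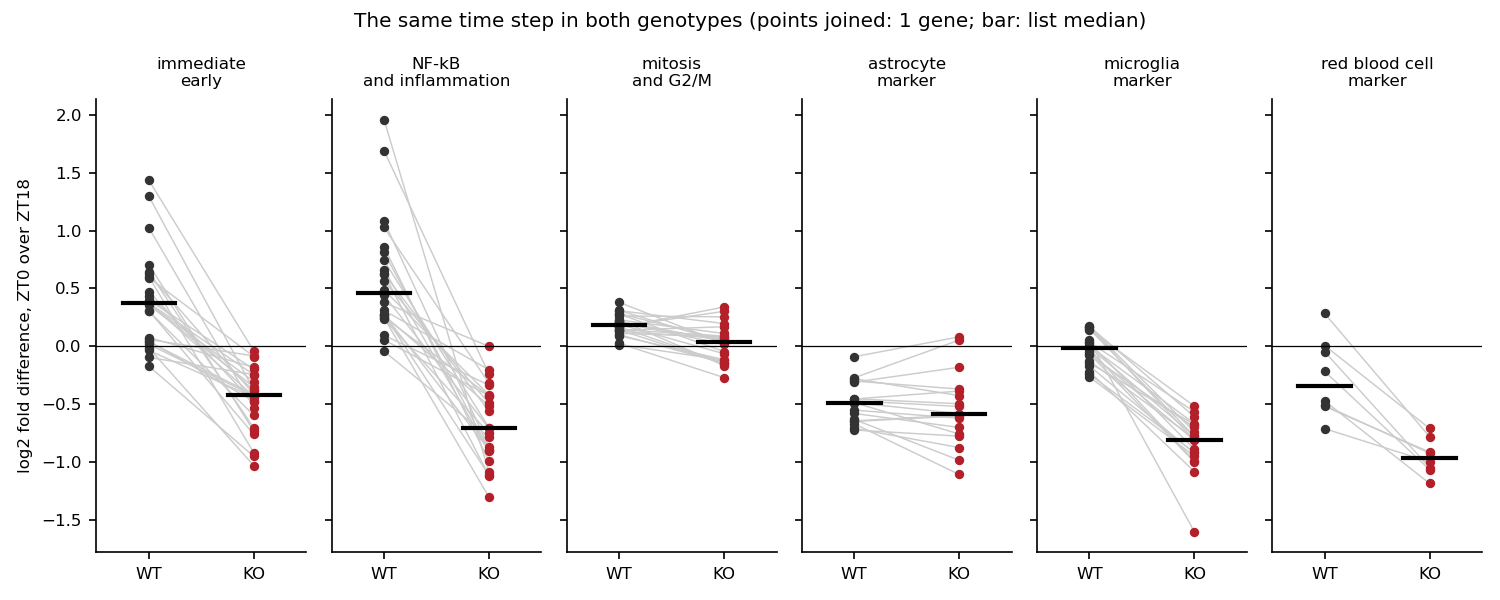
Log2 difference of ZT0 over ZT18 (y axis) in WT and KO OPCs (x axis) for the members of 6 gene lists, with points of the same gene joined and a bar at each list median. The immediate early medians are 0.37 and -0.42, the inflammation medians 0.46 and -0.71, and the astrocyte medians -0.49 and -0.59.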

How the data were processed

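RNA-seq was made from immunopanned mouse OPCs. The authors deposited whole-number read counts per gene for 38 libraries with a gene length column in bases, of another kind than counts, used here for CPM per kb. Per the submitters' processing notes, fastp, HISAT2 2.0.5 and featureCounts 1.5.0-p3 were used with GRCm38 (mm10). Annotation release and strand setting: not given in the sources used here. Genes that overlap on opposite strands may therefore share reads.

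Counts of 54532 genes were filtered by edgeR's filterByExpr, which left 22798 genes with 99.9% of counts, scaled by TMM and fitted in 1 quasi-likelihood model of 8 groups (edgeR 4.0.16, R 4.3.3), so that all groups share the estimate of spread. Contrasts were WT ZT0 minus ZT18, the same in KO, and their difference, with Benjamini-Hochberg adjustment over all genes tested. CPM values are counts per M of TMM-scaled library size, log2 CPM used a prior count of 2, and intervals are 95%. The fit was tested on simulated data. No 2 libraries of a group were within sampling noise of each other (12 pairs).

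Named genes were the core clock list, Pdgfra and Cspg4, the 10 smallest p-values in each direction with mean log2 CPM above 1, up to 4 genes of each of 41 lists by smallest p, and the 5 smallest p-values of the genotype difference, leaving out unnamed gene models and sex-linked genes. Of the genes this allows, those of the lists described were taken. Top2a and Gm37790 lie outside it. Values of 2 members of the core clock list are not reported here, while counts over the list include them. The members and lists were chosen with earlier results of these data known. Of the 675 different list genes, 7 had no match by symbol among the genes tested, and the reason was not looked into. Promoters came from RefSeq for GRCm38.p6 by gene symbol.

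Alternatives were median-of-ratios scaling, library size alone, no and a stricter count filter, DESeq2 1.42.0, limma-voom (limma 3.58.1), fewer libraries in the fit, a replicate block and each library left out. Fits without the 3 libraries of 1 sex and without the 8 libraries of low ribosomal RNA share were added after seeing the data.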

Additional observations from a re-analysis of the deposited data

Results flagged for a closer look

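Libraries that stood apart from the other 3 of their group were found by Dixon's criterion at its 95% limit, which chance meets in about 1 in 20 groups. It was met in 12 of 186 gene tests (6.45%), 6 of 80 list tests (7.5%) and 1 of 8 library measures.

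ZT0 replicate 4 held 7 of the 12 gene values. It was the highest for Hspa1b (88.2 CPM against 1.06 to 1.16 CPM in the other ZT0 libraries), Nr4a3 (66.6 CPM against 7.79 to 10.7 CPM) and Mmd2 (194 CPM against 143 to 150 CPM). It was the lowest for Gm37790 (5.67 CPM), Mast3 (79.5 CPM), Mtrf1l (5.06 CPM) and Unc13d (5.99 CPM).

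ZT0 replicate 1 was the lowest for Hbb-bt (67.9 CPM) and the highest for Per2 (42.9 CPM against 28.7 to 30.4 CPM). In the same library the mean log2 CPM was lowest for glycolysis (6.11), for mitochondrially encoded genes (7.05) and for p53 target genes (4.79), and the mitochondrial share of counts was lowest at 1.44% against 1.89 to 1.98%.

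ZT18 replicate 4 was the lowest for Cdk6 (69.3 CPM) and Il1a (16.3 CPM). Its mean log2 CPM was lowest for the G1 cyclin and CDK inhibitor list (5.88) and p53 target genes (4.70) and highest for Notch (5.52).

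The remaining value was that of Nr4a3, lowest in ZT18 replicate 1 (7.47 CPM against 8.96 to 9.23 CPM).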

How the results depend on the processing

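The count of 0 genes called between WT ZT0 and ZT18 was 1 with DESeq2 (Gm37790) and 0 under every other alternative run, and 0 to 0 as each library was left out. The count of 0 for the genotype difference was 4 in the fit of the 16 libraries compared (CT010467.1, Gm23935, Lars2 and Gm24270), 5 with DESeq2, and 0 to 3 as each library was left out, with 3 (Fabp7, Mast3 and Unc13d) without WT ZT0 replicate 4. The cause was not tested. The number of WT genes at an unadjusted p under 0.05, 935 as reported, was 1220 with limma-voom, 2182 without a count filter, which tests more genes, and 1756 without ZT0 replicate 4, of which 769 had higher and 987 lower values at ZT0. Without the 3 libraries of 1 sex it was 684.

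With the replicate block, 0 genes were called in WT and 926 had an unadjusted p under 0.05, and for the genotype difference 0 were called and 1950 had an unadjusted p under 0.05. The labels do not say whether equal replicate numbers pair the samples. The deviations of same-numbered libraries correlated at -0.163, 0.031, -0.212 and 0.309. Those of unlike-numbered libraries ranged from -0.524 to 0.418, which takes in all of these values, so the correlations cannot decide it.

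Of the 93 genes followed, 18 changed sign under some alternative, and of 41 lists, 23 had a median that changed sign. The genotype difference was not run with the 19 WT libraries alone, without the single-sex libraries or without the low ribosomal RNA libraries.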
